A study of Mus musculus with 8 samples.

Results

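UDP-glucuronosyltransferases (UGTs) and cytosolic sulfotransferases (SULTs) are the enzymes with which the liver attaches glucuronic acid or sulfate to bilirubin, bile acids, hormones and drugs. The conjugates are soluble in water and leave the cell through export pumps into bile or blood. UGTs sit in the membrane of the endoplasmic reticulum and use UDP-glucuronic acid, while SULTs act in the cytosol and use the sulfate donor PAPS. Here 10 of these genes were followed in the liver of Rap1 -/- and wild-type mice: Ugt1a1, Ugt2b1, Ugt2b5, Ugt2b34, Ugt2b35, Ugt2b36, Ugt2a3, Sult1a1, Sult1d1 and Sult1b1. They were found on the array as every non-control probe whose transcript accession maps to one of these symbols. That rule gave 12 probes of 55681 for 9 genes of the 19752 with a symbol, and no probe mapped to Ugt1a1, the bilirubin UGT.

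Each of 8 single-colour Agilent arrays read liver RNA of 1 mouse, 4 Rap1 -/- and 4 wild-type, all aged 10 weeks and on a mixed C57BL6/129SV (90%:10%) background. RAP1, encoded by Terf2ip, is a protein of the telomere-binding shelterin complex that also binds along chromosome arms, and the study asked what its loss does to gene expression in metabolic tissues before obesity sets in. The deletion is constitutive and affects the whole body, since the floxed allele was recombined by Cre under the adenoviral EIIa promoter, active in the early embryo. It is therefore not specific to hepatocytes, and whole liver was profiled, in which fewer cells of a type and less RNA per cell cannot be told apart. Feeding state and sex are not in the labels. The text of the study describes the 10-week-old mice of its expression work as female, and it reports livers from fed and from fasted mice. Of 5 sex-linked genes with a probe, only Xist was well above background on at least 4 arrays. The Y-linked Ddx3y, Eif2s3y and Kdm5d were well above background on 0 arrays.

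All values are log2 of the scanner's processed signal after subtraction of the 75th percentile of each array, so 0 is the level of that percentile, and differences are Rap1 -/- minus wild-type. Pairs of arrays correlated at 0.984 to 0.993. The 75th percentile itself was 219.8 to 227.0 signal units in Rap1 -/- arrays and 178.9 to 209.3 in wild-type arrays, a mean log2 difference of 0.18 that the scaling removes. The arrays came on 2 slides with 2 Rap1 -/- and 2 wild-type livers each. Position on the slide and genotype cannot be told apart, because positions 3 and 4 held Rap1 -/- and positions 1 and 2 wild-type RNA on both slides. The targeted gene checked the labels: its probe A_52_P381806 averaged -6.28 ± 0.43 in Rap1 -/- and 0.14 ± 0.09 in wild-type livers (SD, n = 4 each), was above background on none of the Rap1 -/- arrays by the flag of the scanner software, and was at least 19.0-fold lower there. A second Terf2ip probe, A_55_P2094079, read 0.28 ± 0.18 in Rap1 -/- and -0.92 ± 0.22 in wild-type livers, and the sources used here do not say which part of the gene was deleted.

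Most of the measured genes lie side by side. By gene order in the RefSeq annotation of GRCm38.p6, 13 protein-coding genes follow each other on chromosome 5, from Ugt2b34 through the other Ugt2b and Ugt2a genes to Sult1b1, Sult1d1 and Sult1e1, and 8 of the listed genes are among them. Sult1a1 is on chromosome 7, and Ugt1a1 belongs to the Ugt1a locus on chromosome 1. The promoters of the 5 listed Ugt2b genes are shown because they hold the same short element at nearly the same place. Stretches of 60 bases from RefSeq (GRCm38.p6) are given on the strand of the gene, 5′ to 3′, with GTTANNNNTTAAC in capitals. These letters, whose ends GTTA and TAAC form an interrupted palindrome, were chosen after these promoters had been seen.
Ugt2b1, chr5:86926553-86926612, minus strand: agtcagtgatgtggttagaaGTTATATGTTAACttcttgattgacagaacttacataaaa
Ugt2b5, chr5:87140362-87140421, minus strand: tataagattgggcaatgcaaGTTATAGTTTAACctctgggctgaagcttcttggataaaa
Ugt2b34, chr5:86906971-86907030, minus strand: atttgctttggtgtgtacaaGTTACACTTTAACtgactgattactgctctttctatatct
Ugt2b35, chr5:87000770-87000829, plus strand: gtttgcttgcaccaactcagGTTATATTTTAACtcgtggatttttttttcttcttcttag
Ugt2b36, chr5:87092580-87092639, minus strand: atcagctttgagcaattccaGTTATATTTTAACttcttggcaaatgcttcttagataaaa

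The element starts at position -89 from the annotated start in Ugt2b1, -73 in Ugt2b34, -70 in Ugt2b35, -64 in Ugt2b36 and -61 in Ugt2b5. Its letters occur in the promoter windows, 250 bases before to 50 after the start, of all 7 Ugt2b genes in the table, Ugt2b37 and Ugt2b38 included. Among 32851 windows of all genes 62 held it, or 0.189%. A match describes the sequence and is not evidence of binding. Ugt2a3, which lies between Ugt2b37 and Ugt2b38, lacks the element but has 2 copies of the related letters GTTAAT at -54 and -47, again in capitals.
Ugt2a3, chr5:87337210-87337269, minus strand: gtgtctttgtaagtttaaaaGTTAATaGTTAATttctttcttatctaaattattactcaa

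GTTAAT on either strand was also found in the windows of Ugt1a1, Sult1a1 and Sult1d1, and in 7.1% of all windows. AGGTCA, to which nuclear receptors bind, was in the windows of Ugt2b5, Ugt2b35, Ugt2b36 and Sult1b1 and in 16.3% of all windows. GCGTG, the core of the dioxin-receptor element, was found in those of Sult1d1 and Sult1b1 and in 32.4% of all, and TGACNNNGC, the core of the antioxidant element, in none of the 10 and in 12.4% of all. All motifs were searched on both strands. Beyond the element, the windows of Ugt2b5, Ugt2b37 and Ugt2b38 were close copies, with 86.9% identity between Ugt2b37 and Ugt2b38, 84.2% between Ugt2b5 and Ugt2b38 and 76.2% between Ugt2b5 and Ugt2b37, against a median of 47.2% over the 66 pairs of the 10 listed genes and these neighbours. The genes themselves are paralogs, and whether a probe also reads RNA of a near copy was not tested.

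None of the 9 measured conjugation genes passed the test for a difference between Rap1 -/- and wild-type livers. All 12 probes were well above background on each of the 8 arrays, so every listed gene with a probe was tested. At a limma adjusted p under 0.05, 0 of 9 passed, against 0.0142% of 14066 tested genes. At an unadjusted p under 0.05 the count was also 0 of 9, against 6.36% of genes, though it was 2, Ugt2a3 and Sult1b1, with a trended and robust variance. Further, 0 of 9 had groups that did not overlap, against 4.3%. The log2 fold changes ran from -0.06 to 0.39, with adjusted p from 0.785 to 0.990. Positive values were found for 8 of the 9, against 55.8% of all genes. The median of the 9 was 0.19, against 0.02 over all genes. Single mice weighed on that median, which was 0.08 without Rap1 -/- replicate 2, 0.13 without Rap1 -/- replicate 4 and 0.08 without wild-type replicate 2. The median was also lower under scalings with quantile normalization, each with 6 of 9 genes above 0. These gave 0.122 with normexp and quantile normalization, 0.118 with quantile normalization alone and 0.119 in the authors' table. With median centring the median was 0.20, and 8 of 9 genes were above 0.

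**Figure D1:**
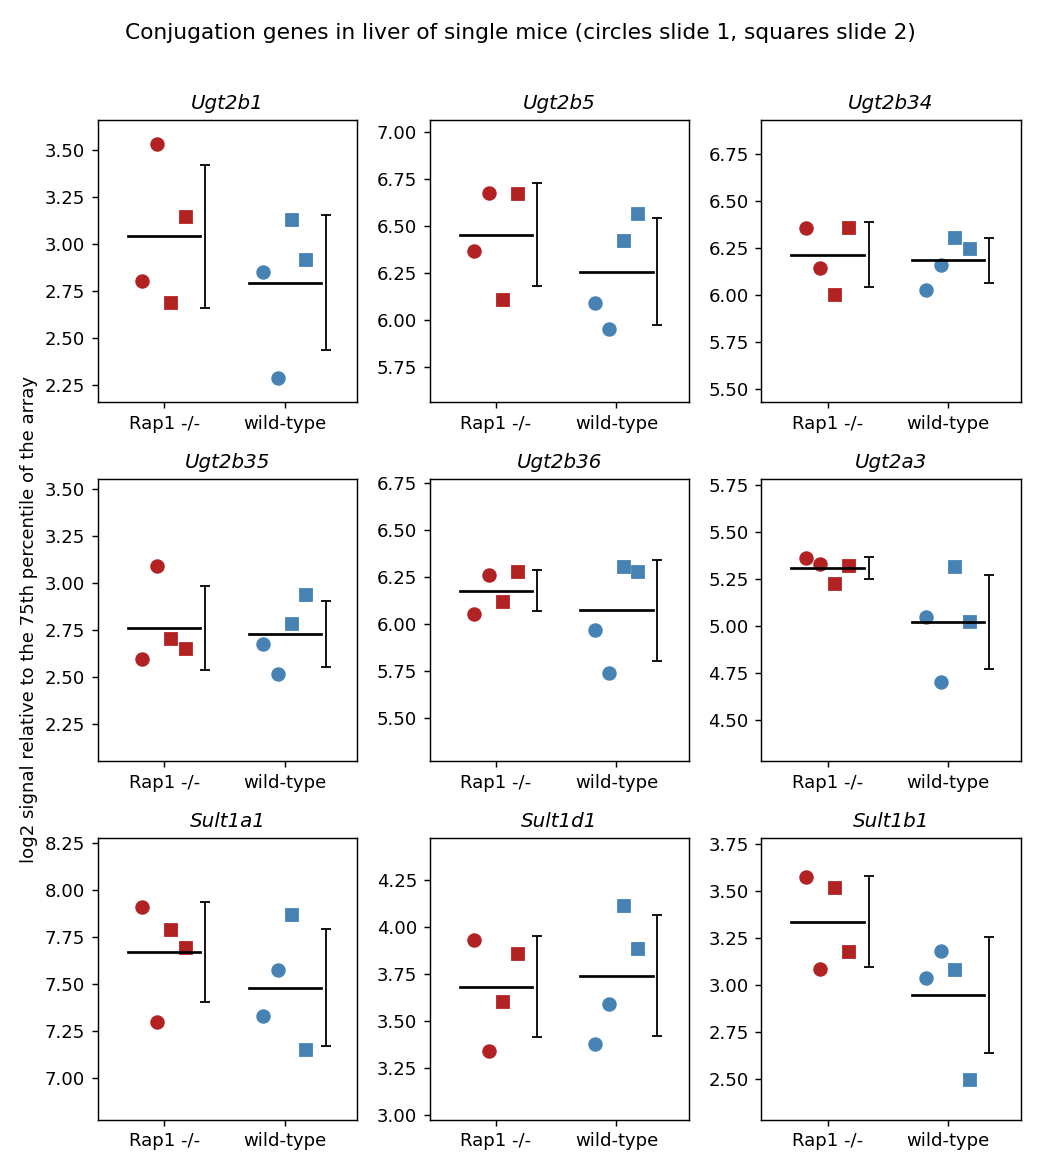
Log2 signal relative to the 75th percentile of the array (y axis) of the 9 measured genes in single livers, with Rap1 -/- mice in red and wild-type mice in blue, circles for slide 1 and squares for slide 2. Horizontal lines are group means and bars 1 SD (n = 4), and each panel spans the same height of 1.5 log2 units. The groups overlap in every panel, and the Rap1 -/- values of Ugt2a3 lie closest together, between 5.22 and 5.36.

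Among the UGT2B enzymes, which glucuronidate steroids, bile acids and many drugs, Ugt2b1 varied most between mice. Its probe was at 2.81, 3.53, 2.69 and 3.15 in the 4 Rap1 -/- livers and at 2.85, 2.29, 3.13 and 2.91 in the 4 wild-type livers. The highest value was in a Rap1 -/- liver and the lowest in a wild-type liver, with the other 6 intermixed. The difference, 0.08 when either of these livers was left out, was 0.25 with all arrays (SE 0.23, 95% confidence interval -0.28 to 0.77, limma adjusted p 0.882), and the exact permutation p, two-sided over the 70 partings of the 8 arrays, was 0.429. The SD of Ugt2b1 within genotypes, 0.37, exceeded that of 81.1% of genes.

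Ugt2b5 had 6.37, 6.67, 6.10 and 6.67 in Rap1 -/- livers, against 6.09, 5.95, 6.42 and 6.56 in wild-type livers. The lowest values, under 6.10, came from the wild-type mice of slide 1, whereas the wild-type mice of slide 2 lay within the Rap1 -/- range. Its difference of 0.20 (SE 0.18) had an interval of -0.21 to 0.61 and a limma adjusted p of 0.881. Ugt2b36 read 6.05, 6.26, 6.12 and 6.27 in Rap1 -/- livers and 5.97, 5.74, 6.30 and 6.27 in wild-type livers. Here too the 2 lowest livers were the wild-type ones of slide 1. The groups overlapped, with a difference of 0.11 (SE 0.14, limma adjusted p 0.917).

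Ugt2b34 and Ugt2b35 showed almost no difference in their means. For Ugt2b34 the Rap1 -/- livers gave 6.36, 6.15, 6.00 and 6.36 and the wild-type livers 6.03, 6.16, 6.30 and 6.25. It was the steadiest of the 9 genes, with a within-genotype SD of 0.15, and only 27.2% of all genes had a smaller one. Its interval, -0.23 to 0.30 around 0.03, leaves room for a fold change between 0.850 and 1.23, the narrowest among the 9. Ugt2b35 was measured by a pair of probes. On the probe that stands for the gene it had 2.60, 3.09, 2.70 and 2.65 in Rap1 -/- livers and 2.68, 2.52, 2.78 and 2.94 in wild-type livers, and the difference was 0.03 (SE 0.14). The second probe, A_55_P1967350, gave 0.05 (SE 0.12), and the difference between the probes' log2 fold changes, 0.02, was within the spread of the arrays (exact permutation p = 0.886). Of their neighbours on chromosome 5, Ugt2b37 differed by 0.16 (SE 0.19) and Ugt2b38 by 0.11 (SE 0.15). Over the 12 tested genes of that row the median was 0.11, 10 were above 0, and 0 had an unadjusted p under 0.05.

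Ugt2a3, whose human counterpart glucuronidates bile acids, had the smallest p of the listed genes, though it did not pass. The Rap1 -/- livers were at 5.36, 5.33, 5.22 and 5.32 and the wild-type livers at 5.05, 4.70, 5.31 and 5.02. Thus 3 wild-type livers lay below all Rap1 -/- livers, and the other one, replicate 3, lay among them. The difference was 0.29 (SE 0.13, interval -0.01 to 0.59, 1.22-fold), with a limma adjusted p of 0.785 and an exact permutation p of 0.0571. With 4 against 4 arrays that test cannot give less than 0.0286. The Rap1 -/- livers also varied less than the wild-type livers, with an SD of 0.06 against 0.25, a difference in spread that was not tested. Among the other 14065 tested genes, those whose 8 values followed Ugt2a3 most closely included Clpp, a subunit of the mitochondrial Clp protease (Pearson r 0.977, Spearman rho 0.905), Hgd, the homogentisate dioxygenase of tyrosine breakdown (0.969 and 0.810), Lap3, an aminopeptidase (0.965 and 0.690) and 1300017J02Rik (0.963 and 0.786). These are among the highest of many coefficients over only 8 arrays and stand as a description. As to genotype, Hgd differed by 0.28 (SE 0.14) and Clpp by 0.15 (SE 0.09), and neither passed the test.

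The SULTs gave both the largest and the only negative difference among the 9 genes, each read by the probe that stands for it. Sult1b1, which sulfates thyroid hormones, was at 3.58, 3.09, 3.51 and 3.18 in Rap1 -/- livers and at 3.04, 3.18, 3.08 and 2.49 in wild-type livers. Wild-type replicate 4 was the lowest by far. Of the wild-type livers 3 lay below all Rap1 -/- livers, replicates 1 and 3 only just, and replicate 2 lay within the Rap1 -/- range. The difference of 0.39 (SE 0.18) corresponded to 1.31-fold, with an interval of -0.02 to 0.80 (0.987- to 1.74-fold), a limma adjusted p of 0.785 and an exact permutation p of 0.114. Of all genes, 92.8% had log2 fold changes nearer to 0. Without wild-type replicate 4 the difference of Sult1b1 was 0.24, below those of Ugt2b5 (0.30), Ugt2a3 (0.29) and Ugt2b1 (0.28) in the same setting.

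Sult1a1, the phenol sulfotransferase that acts on paracetamol among others, had 7.91, 7.30, 7.79 and 7.69 in Rap1 -/- livers and 7.33, 7.58, 7.87 and 7.15 in wild-type livers. The groups covered nearly the same range. A difference of 0.19 (SE 0.19) on one probe and 0.17 (SE 0.20) on the other, A_55_P2005475, were alike within the spread of the arrays (exact permutation p = 0.743 for the pair), and neither passed.

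Sult1d1, a catecholamine sulfotransferase in mice and a pseudogene in humans, was the member whose probes pointed in opposite directions. On probe A_55_P2181542 the Rap1 -/- livers had 3.93, 3.34, 3.60 and 3.86 and the wild-type livers 3.38, 3.59, 4.11 and 3.88, a difference of -0.06 (SE 0.19). On probe A_55_P2181538 the Rap1 -/- livers had -0.68, -1.44, -1.83 and -1.98, against -1.79, -2.01, -2.22 and -2.39 in wild-type livers. This second probe gave 0.62 (SE 0.28, interval -0.01 to 1.25, limma adjusted p over probes 0.819), with the highest value in Rap1 -/- replicate 1. Its processed signal was 40 to 137 units, against the array percentiles of 178.9 to 227.0. The log2 fold changes of this pair of probes differed by 0.68, which the spread of the arrays allows (exact permutation p = 0.143, 0.429 after Benjamini-Hochberg adjustment over 3 pairs of probes). Both probes carry the same transcript accession, so the files do not tell which one reads Sult1d1 RNA better.

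**Figure D2:**
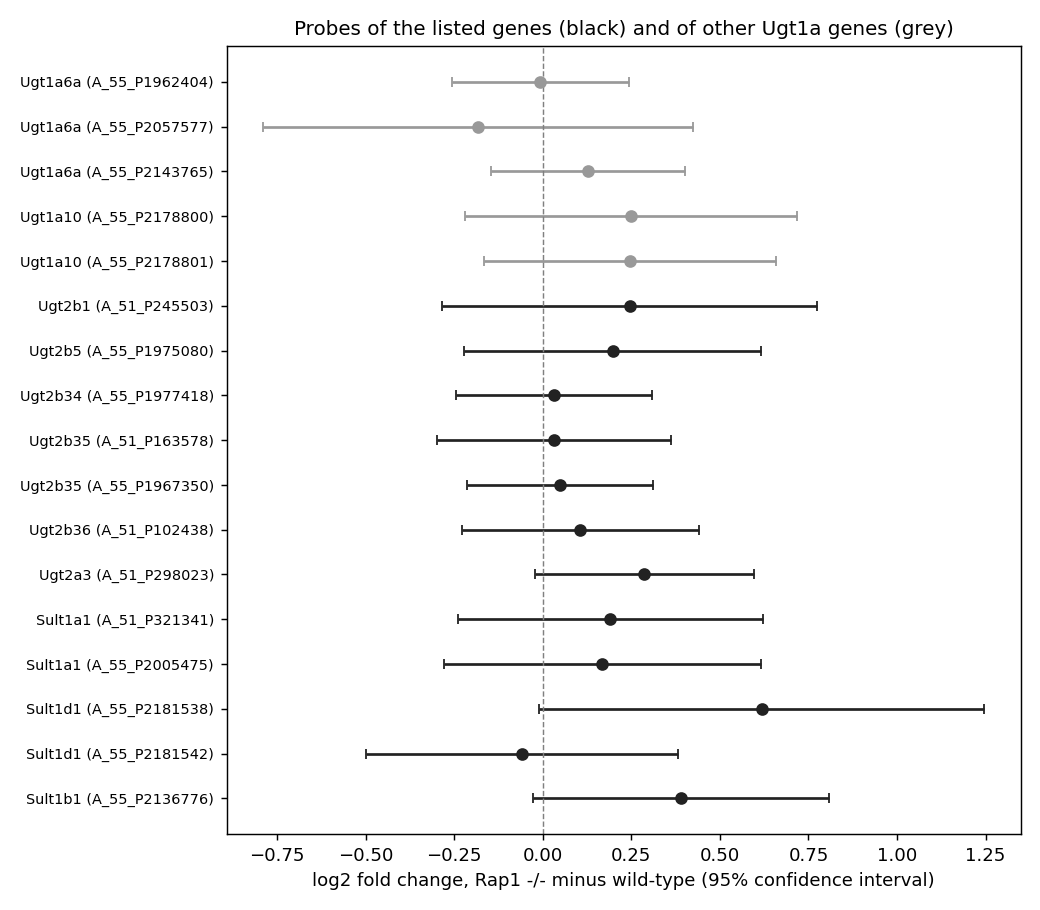
Log2 fold change, Rap1 -/- minus wild-type, with its 95% confidence interval from limma (x axis) for each of the 12 probes of the listed genes (black) and for 5 probes of other Ugt1a genes (grey). Every interval includes 0. The pair of Sult1d1 probes stands out, at 0.62 for A_55_P2181538 and -0.06 for A_55_P2181542.

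For Ugt1a1 itself no value can be given. The Ugt1a locus joins alternative first exons to shared last exons, and 7 of its 9 annotated genes end at the same base. The array has 5 probes whose accessions map to the locus, 3 to Ugt1a6a and 2 to Ugt1a10, and the files do not say whether any of them lies in the shared exons and so reads Ugt1a1 RNA too. A_55_P1962404, the probe that stands for Ugt1a6a, was at 8.84, 8.54, 8.83 and 8.76 in Rap1 -/- livers and at 8.60, 8.79, 8.82 and 8.78 in wild-type livers. The groups overlapped, with a difference of -0.01 (SE 0.11, interval -0.26 to 0.24). Both Ugt1a10 probes gave 0.25, and their intervals included 0.

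Computed within slides, the differences of most listed genes changed sign. On slide 1 all 9 listed genes were higher in Rap1 -/- livers, with a median difference of 0.25. On slide 2 only Ugt2a3, Sult1a1 and Sult1b1 were higher, 6 genes were lower, and the median was -0.10. Over all 14066 genes the shift was small, with medians of 0.04 on slide 1 and 0.01 on slide 2. Ugt2b1 differed by 0.60 on slide 1 and by -0.11 on slide 2, and Ugt2b5 by 0.50 and -0.11. A test of genotype by slide over all genes, added after seeing the data, passed for 0 genes, and the 9 listed genes had adjusted p of 0.999 in it, with unadjusted p of 0.0957 for Ugt2b5 at the lowest. Each value within a slide rests on 2 arrays against 2.

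**Figure D3:**
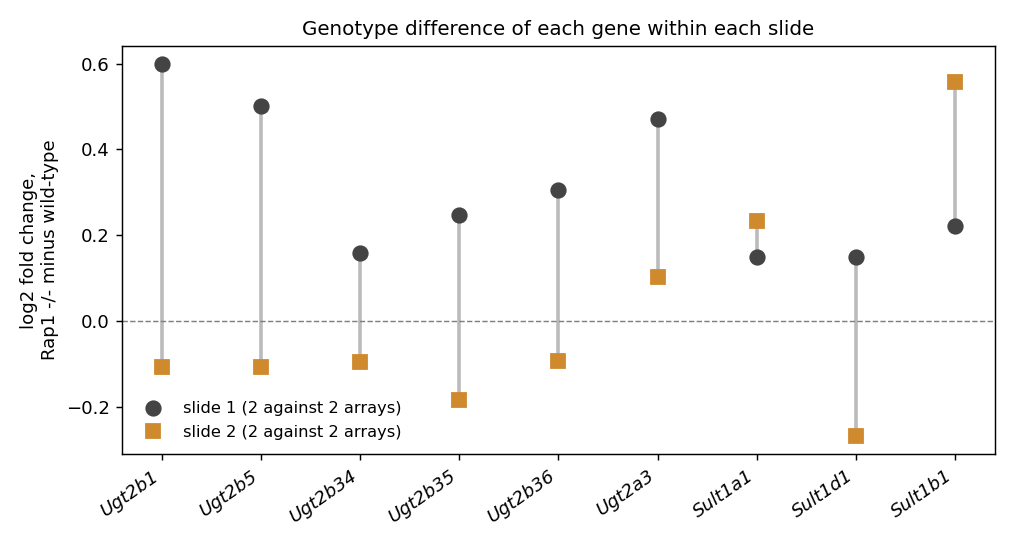
Log2 fold change, Rap1 -/- minus wild-type (y axis), of the 9 listed genes computed within slide 1 (circles) and within slide 2 (squares), each from 2 against 2 arrays, with grey lines joining the values of a gene. All circles lie above 0, while 6 of 9 squares lie below it.

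On slide 1 the wild-type livers were low for nearly all of these genes. Wild-type replicates 1 and 2, on slide 1, were above the 8-array mean for 0 and 1 of the 9 genes, while wild-type replicates 3 and 4, on slide 2, were above it for 8 and 5. The Rap1 -/- livers were above it for 6 and 5 genes on slide 1 and for 3 and 8 on slide 2. Wild-type replicate 2 had the lowest value of 5 genes, all of them UGTs. Rap1 -/- replicate 1 had the highest value of 4 genes, namely Ugt2b34, Ugt2a3, Sult1a1 and Sult1b1, and Rap1 -/- replicate 2 of Ugt2b1, Ugt2b5 and Ugt2b35.

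The remaining UGT and SULT genes gave no call either. Of 7 other tested UGT genes 0 passed, 6 were above 0 and 1 was below, with a median of 0.16, and of 12 other tested SULT genes 0 passed, 8 were above 0 and 4 below, also with a median of 0.16. In the first list the smallest p values belonged to Ugt3a2, at 0.24 (SE 0.13), Ugt1a10, at 0.25 (SE 0.20), and Ugt3a1, at 0.25 (SE 0.21). In the second they were those of Sult3a2, at 1.16 (SE 0.56), Sult2a8, which sulfates bile acids, at 0.30 (SE 0.15), and Sult3a1, at 0.51 (SE 0.32). For Sult3a2 wild-type replicate 2 was at -4.27, while the other wild-type livers were between -2.06 and -1.73.

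In contrast to the listed genes, 4 hydroxysteroid sulfotransferases varied strongly between mice of the same genotype. Sult2a1, which sulfates steroids and bile acids, was at 7.43, 5.38, 7.36 and 7.48 in Rap1 -/- livers and at 5.43, 7.67, 6.26 and 7.53 in wild-type livers. Rap1 -/- replicate 2 and wild-type replicates 1 and 3 were the 3 lowest livers for Sult2a1, Sult2a2, Sult2a4 and Sult2a6 alike, and the range over the 8 mice was 4.58- to 5.01-fold. Their within-genotype SD exceeded that of 98.6% to 99.3% of genes. A wide spread was not particular to them, since Sult3a2 exceeded 98.8% of genes, Sult1e1 97.2% and Sult5a1 95.6%. The log2 fold changes of the 4 Sult2a genes were 0.11 to 0.30 on the probes that stand for them. A second Sult2a4 probe gave 0.65 (SE 0.87) and a second Sult2a2 probe 0.20 (SE 0.43). As close paralogs the 4 Sult2a genes may share signal on the array, so these are not 4 independent readings. Among the listed genes, each on the probe that stands for it, Rap1 -/- replicate 2 had the highest Ugt2b1, Ugt2b5 and Ugt2b35. It was the lowest liver for Sult1d1, followed by wild-type replicate 1. These 2 livers came next after wild-type replicate 4 from the low end for Sult1a1. On the second Sult1d1 probe, A_55_P2181538, they were instead the highest after Rap1 -/- replicate 1, at -1.44 and -1.79. For Sult1b1 the same 3 livers as for the Sult2a genes were among the 4 lowest.

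**Figure D4:**
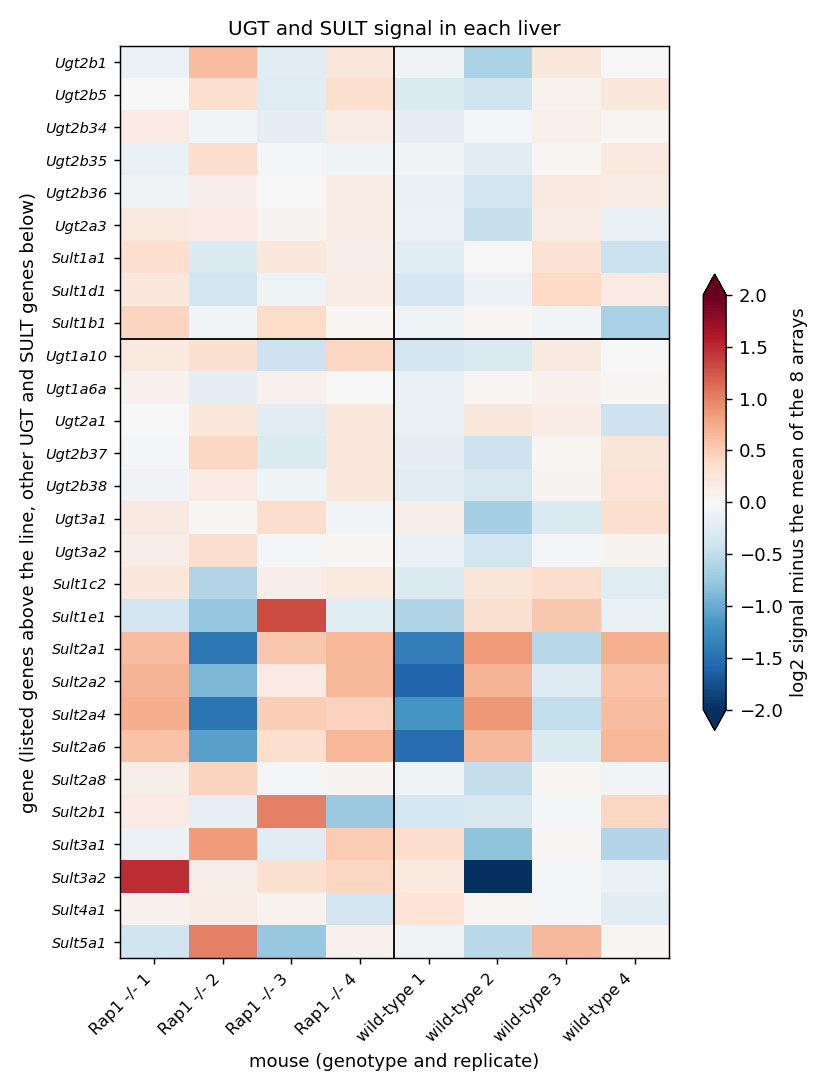
Log2 signal minus the mean of the 8 arrays (colour, limited to 2 log2 units either way) for the 9 listed genes above the horizontal line and for 19 other tested UGT and SULT genes below it, in the 4 Rap1 -/- livers to the left and the 4 wild-type livers to the right of the vertical line. The Sult2a1, Sult2a2, Sult2a4 and Sult2a6 rows are blue in Rap1 -/- replicate 2 and wild-type replicates 1 and 3, and the genotypes overlap in every row.

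Genes that feed conjugation were examined next. PAPS is made from sulfate and ATP, and Papss1, one of the synthases for this, was at 0.62, 0.87, 0.87 and 1.09 in Rap1 -/- livers and at 0.24, 0.55, 0.49 and 0.42 in wild-type livers. The groups did not overlap, which was so for 4.3% of all genes, with an exact permutation p of 0.0286. The difference of 0.44 (SE 0.12, 1.36-fold) did not pass over all genes (limma adjusted p 0.773). Of the 7 tested genes for PAPS and sulfate 0 passed, 6 were above 0 and the median was 0.07, with Bpnt1, which removes the spent donor, at 0.20 (SE 0.13) and the sulfate transporter Slc26a2 at -0.15 (SE 0.25). For UDP-glucuronic acid 4 genes were tested and 0 passed: 2 were above 0 and 2 below. Among them, Ugdh, which makes the donor, was at 0.30 (SE 0.30), Slc35d1, which carries it into the endoplasmic reticulum, at -0.37 (SE 0.21), and the nucleotide-sugar transporter Slc35a3 at -0.17 (SE 0.13).

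Export and removal of conjugates, too, showed no gene past the threshold. Abcc4, an export pump of the blood side, differed by 0.53 (SE 0.38), Abcg2 by 0.21 (SE 0.18) and Abcc2, the pump of the bile canaliculus, by -0.15 (SE 0.16), and of the 4 exporters 3 were above 0. Within both genotypes replicate 2 stood far from the rest for Abcc4. The 3 tested deconjugating enzymes were all above 0, the lysosomal arylsulfatase Arsa at 0.25 (SE 0.15), the glucuronidase Gusb at 0.08 (SE 0.11) and Arsb at 0.03 (SE 0.12). Of 14 transcription factors known to act on conjugation genes 0 passed, 8 were above 0, and the median was 0.03. Those with the smallest p included Foxa2, at 0.29 (SE 0.17), and Nfe2l2, the factor of the antioxidant element, at 0.19 (SE 0.12). For Foxa2, a forkhead factor of hepatocytes, the Rap1 -/- livers were at 3.94, 3.66, 4.35 and 3.93 and the wild-type livers at 3.82, 3.84, 3.70 and 3.37, with overlap.

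Markers of cell types were set beside these values. All 10 hepatocyte markers were measured and 0 passed, with 4 above 0, 6 below and a median of -0.09. Their summed level, in multiples of the 75th percentile, was 7101 to 7657 in Rap1 -/- livers and 7864 to 8524 in wild-type livers. Alb differed by -0.21 (SE 0.09, limma adjusted p 0.773), with all 4 Rap1 -/- livers below all wild-type livers. It was the only hepatocyte marker whose groups did not overlap, which was so for 4.3% of all genes. The scaling lowered Rap1 -/- values by a mean log2 of 0.18 relative to wild-type values, and its part in this difference was not tested. Intestinal epithelium also expresses several UGTs and SULTs. Of its 6 markers with a probe only 2 were tested, Fabp2 and Vil1. These 2 summed to 40.1 to 57.4 in Rap1 -/- livers and 32.5 to 38.9 in wild-type livers. Fabp2, at 0.31 (SE 0.13, limma adjusted p 0.784), was the main part, so the sum mostly reads 1 gene. Its groups did not overlap, as for 4.3% of all genes. Vil1 differed by 0.51 and did not pass, while Cdx1, Cdx2 and Lct stayed near background on all 8 arrays. Of the 7 cholangiocyte markers 0 passed, 5 were above 0 and the median was 0.38. Their sum was 23.8 to 40.0 in Rap1 -/- and 16.7 to 32.4 in wild-type livers. At an unadjusted limma p under 0.05, 2 of the 7 were higher, against 6.36% of genes in either direction. Other lists also had 0 genes past the threshold. Among them, the median was -0.03 for pericentral and 0.08 for periportal hepatocyte markers. All 6 tested macrophage markers (median -0.12) and all 4 tested neutrophil markers (median -0.43) were below 0. The part of these shifts in the values of the conjugation genes was not tested.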

How the data were processed

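Per the file headers, the spot intensity values were extracted with Agilent Feature Extraction 10.7.3.1, and the processed signal the authors deposited is an intensity on a linear scale after background subtraction, without normalization between arrays. The value table deposited by the authors is on the log2 scale. It matched the scanner values after normexp correction and quantile normalization within 0.05 for 99.5% of values, with column medians of 6.39 to 6.40, so it is not centred on genes. The submitters' processing notes name limma.

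Spots called outliers by the scanner software were left out, and the remaining spots of a probe were averaged. Of 55681 probes, 26056 received a symbol through RefSeq accessions (GRCm38.p6). The arrays' own annotation is older, and RefSeq served for names, gene order and promoter sequences. Log2 processed signal minus the 75th percentile of each array was tested where a probe was well above background on at least 4 of 8 arrays (31068 probes, 14066 genes, each gene by its probe with the highest mean). The genotypes were fitted in limma 3.58.1 (R 4.3.3) with no covariate, with Benjamini-Hochberg adjustment over all genes and a threshold of 0.05. Probe tests were adjusted over all probes. For single genes a two-sided exact permutation p is given beside it. The labels call the replicates biological. Where a whole genotype stayed below that flag, the fold is a bound that sets each of its arrays to its lowest signal among probes well above background, if higher than the probe's own.

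The script was tested on simulated data. The listed genes, the other gene lists and the tests were chosen with earlier results of these data known. Named were all listed genes with every probe, Terf2ip, up to 3 genes of each pathway list by smallest p, and the genes most like Ugt2a3, of which some are not reported here. Sult2a genes, Ugt2b37, Ugt2b38, cell markers and genes named in the closing section were chosen after their values were seen. Alternatives were normexp (offset 50, on the median signal, since the mean signal is not used here) with quantile normalization, quantile normalization or median centring of the processed signal, the authors' table, other filters, other rules for probes and variance, slide and replicate as blocks, each slide alone, and each array left out. The second probe of a gene, the genotype by slide test and the test between probes were added after seeing the data. Replicate numbers did not pair the arrays. The number of arrays limits the precision. No protein sequences were used here.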

Additional observations from a re-analysis of the deposited data

Results flagged for a closer look

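Dixon's gap-to-range test at the 95% level was run on 92 groups of 4 arrays. They covered the listed genes and a part of the other pathway genes, not all of them. In 8 groups 1 liver lay far from the other 3. Chance flags about 1 in 20 groups. None of the 18 groups of the 9 listed genes was among them. Rap1 -/- replicate 2 accounted for 4: it was at 5.38 for Sult2a1 (the others 7.36 to 7.48), 3.67 for Sult2a4 (5.59 to 5.86), 1.95 for Sult1c2 (2.67 to 2.76) and -1.59 for Abcc4 (-0.08 to 0.07). Wild-type replicate 2 was at -4.27 for Sult3a2 (-2.06 to -1.73) and at -0.34 for Abcc4 (-1.15 to -1.04). Rap1 -/- replicate 4 was at -2.05 for Sult4a1, with the others between -1.61 and -1.53. Rap1 -/- replicate 1 was at 3.70 for Nfe2l2, where the others all rounded to 3.66.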

How the results depend on the processing

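No listed gene passed under any of the 21 alternatives. Ugt2a3, Sult1a1 and Sult1b1 stayed above 0 in all of them. Ugt2b34 and Ugt2b35 turned to -0.0673 and -0.0467 with normexp and quantile normalization, -0.0501 and -0.0119 with quantile normalization alone, and -0.0692 and -0.0402 in the authors' table. Within slide 2, Ugt2b1 was -0.106, Ugt2b5 -0.106, Ugt2b34 -0.0958, Ugt2b35 -0.184 and Ugt2b36 -0.0932, and the median of the listed genes was -0.0958. Sult1d1 turned to 0.28 with the mean of its probes, 0.15 within slide 1 and 0.62 on its second probe. With single arrays left out, Ugt2b1 ranged from 0.0770 (without wild-type replicate 2) to 0.365, Ugt2b5 from 0.0959 (without wild-type replicate 2) to 0.314, Ugt2a3 from 0.181 (without wild-type replicate 2) to 0.384, Sult1a1 from 0.0801 (without wild-type replicate 4) to 0.320, Sult1b1 from 0.238 (without wild-type replicate 4) to 0.474, Ugt2b34 ranged from -0.0213 to 0.102, Ugt2b35 from -0.0785 to 0.102, Ugt2b36 from -0.00553 to 0.183, Sult1d1 from -0.179 to 0.0645 and the median of the listed genes from 0.08 to 0.25. The cause of these turns was not tested.

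Over all genes, 2 passed. The count was 3 with the mean of the probes of a gene and with trended and robust variance. It was 0 with normexp and quantile normalization, in the authors' table, with the replicate block and within slide 1. It was 1 with quantile normalization, median centring, no filter, all 8 arrays well above background, the slide block, within slide 2 and without any single array. With replicate numbers as a block (replicate block), 0 listed genes passed and 1 had an unadjusted p under 0.05. That number was 2 with trended and robust variance, 1 without Rap1 -/- replicate 2, wild-type replicate 2 or wild-type replicate 3, and 0 otherwise. Same-numbered arrays correlated at -0.18 to 0.10, so the numbers do not pair the mice. No Rap1 -/- array correlated best with the wild-type array of its own number. A probe's signal over background did not limit the listed genes, while 4 arrays a genotype limit each log2 difference to intervals such as -0.28 to 0.77 for Ugt2b1.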

Other observations

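Of all genes, each read by its probe with the highest mean, 2 passed the adjusted threshold. Terf2ip was not counted among these 2, since that rule read it by A_55_P2094079, which was 1.20 higher in Rap1 -/- livers. Its other probe, A_52_P381806, differed by -6.42 (limma adjusted p over probes 7.2e-06). The 2 genes were named after their values were seen, and 1 of them is a sulfotransferase of another family. Chst4, a Golgi enzyme that sulfates N-acetylglucosamine on glycoproteins, averaged -6.18 ± 0.41 in Rap1 -/- livers, where 0 of 4 arrays had it well above background, and -2.72 ± 0.41 in wild-type livers, where it was on all 4 (SD, n = 4 each). It was at least 2.61-fold lower in Rap1 -/- livers. Chst4 met the filter on signal through the wild-type arrays alone. Its limma adjusted p of 0.00465 therefore rests in part on Rap1 -/- values near background. Zfhx3, a homeobox transcription factor, averaged -0.61 ± 0.16 in Rap1 -/- and 0.60 ± 0.19 in wild-type livers, a difference of -1.21 (SE 0.13, limma adjusted p 0.0478). Both genes are on chromosome 8, as is Terf2ip. Neither call held under every alternative, since the count of genes past the threshold was 0 in 4 of them. In most of the others the count was 1, so at least 1 of the 2 calls was lost there as well.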
